A study of Homo sapiens with 4 samples.

Results

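ATP-dependent chromatin remodelling genes were followed through siRNA knockdown of ZSCAN5A and ZSCAN5B in HEK-293 cells, an established line derived from human embryonic kidney. The genes were taken by symbol from a table of expression values: the CHD1 to CHD9 genes, all genes whose symbols start with SMARC, ARID1, ARID2, INO80, BAZ1 or BAZ2, and BPTF, PBRM1, BRD7, BRD9, EP400, SRCAP, RUVBL1, RUVBL2, ACTL6A and HELLS. This rule used no expression value and found 45 genes among the 24934 gene rows of the table. Cells were transfected for 48 h with 10 nM of si4 or si5, which target ZSCAN5A, with si1, which targets ZSCAN5B, or with a scrambled control siRNA, and 1 mRNA library was sequenced for each of the 4 treatments. HEK-293 cells carry no other labelled modification here, and all 4 libraries, the control included, come from cells treated with transfection reagent and an siRNA. The level of a gene is given as FPKM (fragments per kilobase of transcript, relative to all mapped fragments), which is a level per length, and a change is given as the ratio of FPKM in a knockdown to FPKM in the control, or as the log2 of that ratio.

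Remodellers are protein machines that use the energy of ATP hydrolysis to slide, evict or restructure nucleosomes, the units of DNA wound on histones. Each is built around an ATPase of the SNF2 family, and most are grouped by that ATPase into the BAF and PBAF (SWI/SNF), ISWI, CHD and INO80 families. The last of these includes the SRCAP and TIP60/EP400 complexes, which place a variant histone into nucleosomes near gene starts. The other subunits hold the complex together, read histone marks or direct it to particular sites, and several complexes are needed in dividing cells for transcription, replication and repair.

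ZSCAN5A and ZSCAN5B are zinc finger genes on chromosome 19, and the targets of the siRNAs are shown here because all comparisons rest on them. Each target was found in GRCh37, the build of the table (hg19), in coding sequence on the minus strand, and the capitals mark the bases that pair with bases 2 to 8 of the guide strand, its seed. The si4 target lies at chr19:56733332-56733352 and the si5 target at chr19:56733307-56733327, both in exon 6 of the 6 exons of ZSCAN5A, and the si1 target lies at chr19:56701591-56701611 in exon 5 of the 5 exons of ZSCAN5B.
si4: cgagaagaggtttACGTGTAa
si5: aagctagtcatccACAAGAGa
si1: acgtgtgcaataaATCATTTa

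The targeted genes were read first. ZSCAN5A stood at 2.42 FPKM in the control, at 0.73 after si4, at 0.713 after si5 and at 2.53 after si1, so that the mean of si4 and si5 was 29.9% of the control. ZSCAN5B stood at 0.0903 FPKM in the control, 0.0948 after si1, 0.0331 after si4 and 0.0663 after si5, from 15, 16, 6 and 17 fragments read off the steps between low values. The si1 value was 105% of the control, with a counting interval (exact Clopper-Pearson, 95%) from 48.6% to 228%. Levels under 48.6% of the control lay outside this interval, and a smaller reduction was not detectable from these few fragments. Since ZSCAN5B was not seen to be lower after si1, si1 is referred to as the library labelled ZSCAN5B knockdown. Steps between low FPKM values gave a depth of 1.09 (si4), 1.54 (si5) and 1.02 (si1) times that of the control, which held about 54500000 fragments. The markers of HEK-293 (VIM, NEFL, NEFM, KRT8, KRT18 and LHX1) were all above 3 FPKM in every library, and PTPRC, ALB, CDH5 and MYOD1, markers of blood, liver, endothelium and muscle, were at 0.203 FPKM or below. In RNA from whole cultures, fewer cells that express a gene and less of its RNA per cell cannot be told apart.

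Of the 45 genes, 44 reached 1 FPKM in at least 1 library and were compared. CHD5, an ATPase best known from neural tissue, was the exception, at 0.083 FPKM in the control, and at 0.0546 after si4, 0.0643 after si5 and 0.0728 after si1, from an estimated 53 fragments or fewer. Since each treatment, the control included, was sequenced once, no treatment was repeated, and the ratios carry no test. The libraries of si4 and si5, which share a target but not an siRNA, enter a limma fit only as an alternative. A gene was called changed when its ratio to the control passed 1.5-fold. In intervals around a ratio, the error is that of fragment counting alone (exact Clopper-Pearson, 95%), and it does not cover the spread between cultures. Fragments of remodelling genes were not counted but computed from FPKM, an annotated transcript length and the estimated depth, so these intervals are approximate. For ZSCAN5A the ratio has the mean FPKM of si4 and si5 above the line, and for ZSCAN5B the FPKM of si1. The control below the line is the same library in both comparisons.

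The large subunits EP400, SRCAP, ARID1A and BAZ2A, from 3 families, were lower in every siRNA library, and no remodeller was called higher. The 4 genes were called lower in both comparisons. For the ZSCAN5A siRNAs, 4 of 44 genes were called lower, where 3.11% of all 12993 genes above the expression limit were called lower, and 0 of 44 were called higher, where the share of all genes was 0.677%. In the library labelled ZSCAN5B knockdown, 4 of 44 were called lower beside 3.17% of 12921 genes, and 0 of 44 were called higher beside 0.844%. All 4 transcripts are long and rich in GC, a class in which 21.9% and 19.7% of all genes were called lower in these 2 comparisons. With the trend with length and GC content removed, as described further on, 0 of 44 remodellers were called in either comparison. The set as a whole stayed close to the control. Its median log2 ratio was -0.03 for the ZSCAN5A siRNAs, with quartiles of -0.25 and 0.11, and the median of all genes was -0.02. In the library labelled ZSCAN5B knockdown the set's median was -0.07, with quartiles of -0.23 and 0.11, and that of all genes was -0.01. By sign alone, 26 of the 44 genes were lower and 18 higher with the ZSCAN5A siRNAs, where 53.3% of all genes were lower. With si1, 27 were lower and 17 higher, where 51.5% of all genes were lower. These splits turned to 15 lower and 29 higher, and to 20 lower and 24 higher, with the length and GC trend removed, and with upper-quartile scaling the first was 23 lower and 21 higher.

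**Figure D1:**
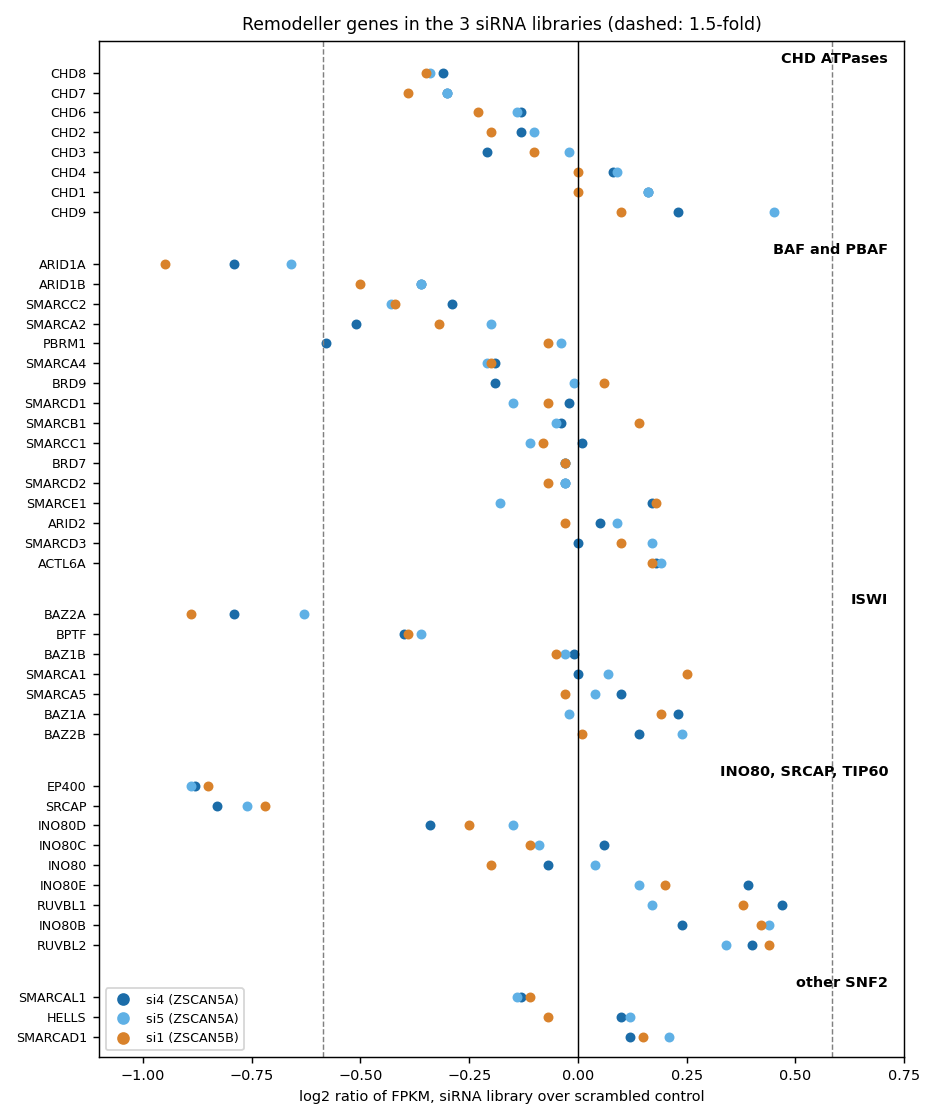
Log2 ratio of FPKM in each siRNA library to the scrambled control (horizontal axis) for 43 remodelling genes grouped by family (rows), with 1 point for each of si4, si5 and si1, a solid line at no change and dashed lines at 1.5-fold. EP400, SRCAP, ARID1A and BAZ2A have all 3 points beyond the lower dashed line, from -0.63 to -0.95, and no point lies beyond the upper one.

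EP400 is the ATPase of the TIP60/EP400 complex, which combines nucleosome remodelling with acetylation of histones. It stood at 6.91 FPKM in the control, and at 3.75 after si4, 3.72 after si5 and 3.83 after si1. The 3 siRNA libraries lay within 0.11 FPKM of each other, and all of them lay below the control. The ratio to the control was 0.541 for the ZSCAN5A siRNAs, with a counting interval of 0.521 to 0.562, and 0.554 for si1, with an interval of 0.528 to 0.582. Among all genes compared with the ZSCAN5A siRNAs it ranked in the lowest part of the distribution, at percentile 0.654, and with si1 at percentile 0.673.

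SRCAP, the ATPase that gives its name to the complex that deposits variant histone, stood at 11.9 FPKM in the control, and at 6.71 after si4, 7.02 after si5 and 7.25 after si1. It was again lower in every siRNA library than in the control. The ratio was 0.576 (counting interval 0.56 to 0.593) for the ZSCAN5A siRNAs and 0.608 (0.587 to 0.631) for si1.

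ARID1A, a DNA-binding subunit found in canonical BAF complexes and often mutated in cancer, stood at 12.4 FPKM in the control, and at 7.15 after si4, 7.82 after si5 and 6.42 after si1. The ratio was 0.604 (0.585 to 0.625) for the ZSCAN5A siRNAs and 0.518 (0.496 to 0.541) for si1, the lowest ratio of any remodeller in that library. BAZ2A, the large subunit of the nucleolar ISWI complex that silences ribosomal RNA genes, stood at 17 FPKM in the control, and at 9.87 after si4, 11 after si5 and 9.17 after si1. Its ratios were 0.614 (0.597 to 0.631) and 0.539 (0.52 to 0.559). For ARID1A and BAZ2A the si1 library was the lowest of the 4 and the si5 library the nearest to the control, whereas for EP400 and SRCAP the si1 library was the nearest.

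**Figure D2:**
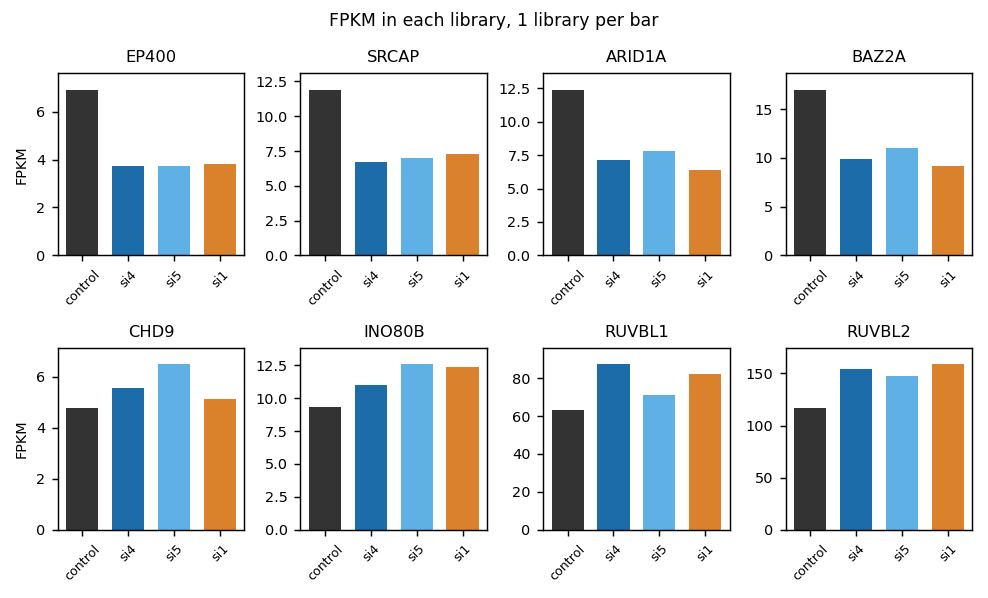
FPKM (vertical axes, each starting at 0) in the control, si4, si5 and si1 libraries for 8 remodelling genes, with 1 library per bar and no error bar because no treatment was repeated. The control bar is the tallest for EP400, SRCAP, ARID1A and BAZ2A, and the shortest for CHD9, INO80B, RUVBL1 and RUVBL2.

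In the coordinates of the table (hg19), EP400 lies at chr12:132434464-132565011, SRCAP at chr16:30710461-30751450, ARID1A at chr1:27022521-27108601 and BAZ2A at chr12:56989379-57030163. The loci of EP400 and SRCAP each contain a small nucleolar RNA gene (SNORA49 and SNORA30), and that of BAZ2A overlaps the end of RBMS2. Small RNA genes also overlap remodellers that were not called, among them CHD8 (SNORD8 and SNORD9), CHD3 (SCARNA21) and CHD4 (SCARNA11). Whether strand was used when fragments were assigned is not given in the sources used here, so fragments in such overlaps cannot be attributed with certainty.

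The promoters of these 4 genes are shown because the genes moved together. Each line holds 250 bases before and 50 after a gene start from RefSeq (GRCh38.p14), 5′ to 3′ on the strand of the gene, and capitals mark the GC box GGGCGG, read on either strand (CCGCCC on the other). EP400 is at chr12:131949692-131949991 on the plus strand, SRCAP at chr16:30698921-30699220 on the plus strand and ARID1A at chr1:26695765-26696064 on the plus strand. BAZ2A has 2 starts in the table, at chr12:56636310-56636609 and chr12:56630277-56630576, both on the minus strand.
EP400: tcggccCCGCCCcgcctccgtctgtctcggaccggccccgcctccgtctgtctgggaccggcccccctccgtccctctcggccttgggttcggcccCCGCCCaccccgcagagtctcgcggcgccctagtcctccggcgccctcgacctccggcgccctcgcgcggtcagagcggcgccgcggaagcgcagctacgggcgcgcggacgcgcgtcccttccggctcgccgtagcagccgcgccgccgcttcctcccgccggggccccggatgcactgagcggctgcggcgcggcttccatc
SRCAP: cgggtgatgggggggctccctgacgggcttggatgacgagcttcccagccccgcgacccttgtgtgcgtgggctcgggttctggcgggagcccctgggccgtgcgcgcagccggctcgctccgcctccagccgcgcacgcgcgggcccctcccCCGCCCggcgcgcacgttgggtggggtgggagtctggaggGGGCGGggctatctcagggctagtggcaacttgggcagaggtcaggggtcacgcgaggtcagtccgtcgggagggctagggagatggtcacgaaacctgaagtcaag
ARID1A: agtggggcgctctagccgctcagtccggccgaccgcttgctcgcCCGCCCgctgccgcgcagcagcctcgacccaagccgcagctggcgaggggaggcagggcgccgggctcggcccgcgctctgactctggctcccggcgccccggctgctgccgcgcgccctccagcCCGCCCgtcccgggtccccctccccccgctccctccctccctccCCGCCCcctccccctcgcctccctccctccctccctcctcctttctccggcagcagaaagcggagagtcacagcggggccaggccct
BAZ2A, first start: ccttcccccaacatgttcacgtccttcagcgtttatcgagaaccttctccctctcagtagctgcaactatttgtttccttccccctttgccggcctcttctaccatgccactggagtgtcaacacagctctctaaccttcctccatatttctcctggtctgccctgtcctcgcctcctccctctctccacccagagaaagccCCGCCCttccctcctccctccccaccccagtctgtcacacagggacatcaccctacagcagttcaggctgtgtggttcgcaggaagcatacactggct
BAZ2A, other start: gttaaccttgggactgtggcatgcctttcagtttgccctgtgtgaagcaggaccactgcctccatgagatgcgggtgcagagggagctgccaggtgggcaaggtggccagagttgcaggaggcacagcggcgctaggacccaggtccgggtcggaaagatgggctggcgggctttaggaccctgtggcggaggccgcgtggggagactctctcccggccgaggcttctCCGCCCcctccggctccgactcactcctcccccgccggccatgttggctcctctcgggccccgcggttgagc

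All 5 windows held at least 1 GC box, with 3 in ARID1A, 2 each in EP400 and SRCAP and 1 in each BAZ2A window. GC content was 79% in EP400, 78% in ARID1A, 72% in SRCAP, and 56.3% and 67.3% in the BAZ2A windows. A GC box stood in 45% of all 35116 promoters of the same length, whose median GC content was 58.7%, and in 39 of 58 promoters of 36 remodelling genes (67.2%), whose median was 65.5%. None of the 5 windows held GGTTCGA on either strand, the core of the B box of tRNA genes, which 0.86% of all promoters and those of CHD9 and INO80 among the remodellers held. Such matches describe the letters in these windows and were not tested as sites.

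The other members of the INO80, SRCAP and TIP60 complexes included those with the highest ratios of the set, none of them past 1.5-fold. RUVBL2 and RUVBL1 form the ring-shaped AAA+ ATPase that all 3 complexes share. RUVBL2 stood at 117 FPKM in the control, and at 154 after si4, 148 after si5 and 159 after si1, with log2 ratios of 0.37 and 0.44, the first being for the ZSCAN5A siRNAs and the second for si1, as in the other pairs of log2 ratios that follow. RUVBL1 stood at 63.3 FPKM in the control, and at 87.5 after si4, 71.2 after si5 and 82.2 after si1 (log2 ratios 0.33 and 0.38). In both genes the control was the lowest of the 4 libraries.

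INO80B, a subunit of INO80, stood at 9.32 FPKM in the control, and at 11 after si4, 12.6 after si5 and 12.4 after si1 (log2 ratios 0.34 and 0.42). INO80E, another subunit of the same complex, stood at 33.7, 44, 37.1 and 38.6 FPKM in the same order (0.27 and 0.20). INO80 itself, the ATPase, stood at 5.1 FPKM in the control, and at 4.87 after si4, 5.25 after si5 and 4.44 after si1 (-0.01 and -0.20), with the control between the siRNA libraries. INO80C and INO80D had log2 ratios from -0.25 to -0.02. Thus within the 9 genes grouped under these complexes the log2 ratio ran from -0.89 to 0.37 with the ZSCAN5A siRNAs and from -0.85 to 0.44 with si1. The medians were -0.01 and -0.11, or 0.13 and -0.02 with the trend with transcript length and GC content removed. ACTL6A (0.18 and 0.17) was counted only with BAF and PBAF and is not among the 9.

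The read-through transcript INO80B-WBP1 shares its start with INO80B and was counted in no family. It stood at 2.54 FPKM in the control, and at 4.49 after si4, 1.36 after si5 and 2.74 after si1. It passed 1.5-fold with each ZSCAN5A siRNA singly but in opposite directions, with log2 ratios of 0.82 for si4 and -0.91 for si5. Fragments of the shared exons can be split between the 2 rows, so its values and those of INO80B are uncertain.

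In the BAF and PBAF family, 12 of 16 genes were lower than the control by sign with the ZSCAN5A siRNAs, where 53.3% of all genes were. With si1, 11 of 16 were lower, where 51.5% of all genes were. ARID1A alone passed 1.5-fold. The medians were -0.07 in both comparisons, and 0.01 in both with the length and GC trend removed. Of the alternative ATPases of these complexes, SMARCA4 (BRG1) stood at 40 FPKM in the control, and at 35 after si4, 34.6 after si5 and 34.7 after si1 (log2 ratios -0.20 and -0.20). SMARCA2 (BRM) stood at 13.5 FPKM in the control, and at 9.42 after si4, 11.7 after si5 and 10.8 after si1 (-0.35 and -0.32). Both were lower in every siRNA library than in the control, with SMARCA2 lower for si4 than for si5.

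ARID1B, the paralog that takes the place of ARID1A in other BAF complexes, stood at 6.83 FPKM in the control, and at 5.32 after si4, 5.32 after si5 and 4.85 after si1 (-0.36 and -0.50). It was lower than the control in every siRNA library, as ARID1A was. SMARCC2, a scaffold subunit, had log2 ratios of -0.36 and -0.42, and its paralog SMARCC1 had -0.05 and -0.08. PBRM1, the bromodomain subunit that defines PBAF, stood at 12.1 FPKM in the control, and at 8.12 after si4, 11.8 after si5 and 11.6 after si1. The si4 library stood apart from the other 3, and its log2 ratio of -0.58 was just inside the 1.5-fold limit, beside -0.04 for si5. ARID2 and BRD7, also of PBAF, were near the control, with log2 ratios from -0.03 to 0.07. The remaining BAF genes (SMARCB1, SMARCD1, SMARCD2, SMARCD3, SMARCE1, BRD9 and ACTL6A) had log2 ratios from -0.10 to 0.18 in both comparisons.

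In the ISWI family the ATPases differed little from the control. SMARCA5 (SNF2H) stood at 21.9 FPKM in the control, and at 23.5 after si4, 22.4 after si5 and 21.4 after si1 (0.07 and -0.03). SMARCA1 (SNF2L) stood at 36.7 FPKM in the control, and at 36.7 after si4, 38.5 after si5 and 43.5 after si1 (0.04 and 0.25), so that the si1 library was the highest. Of the large subunits that direct these ATPases, BPTF, which reads methylated histone H3 in the NURF complex, stood at 11.8 FPKM in the control, and at 8.97 after si4, 9.18 after si5 and 9.03 after si1 (-0.38 and -0.39). The other ISWI partners BAZ1A, BAZ1B and BAZ2B had log2 ratios from -0.05 to 0.20. The large values of the family thus stood in BAZ2A and BPTF, and the family medians were 0.04 and -0.03, or 0.05 and 0.05 with the length and GC trend removed.

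The CHD ATPases carry paired chromodomains that bind histone tails. None of the 8 that were compared passed 1.5-fold. CHD4, the main ATPase of the NuRD complex, which joins remodelling with histone deacetylation, had the highest level of them, at 48.4 FPKM in the control, and at 51 after si4, 51.3 after si5 and 48.4 after si1 (0.08 and 0.00). CHD3, its paralog in NuRD, stood at 23, 19.9, 22.7 and 21.4 FPKM in the same order (-0.11 and -0.10). CHD1, which binds trimethylated lysine 4 of histone H3, stood at 15.9, 17.7, 17.7 and 15.9 FPKM (0.16 and 0.00), and CHD2 at 12, 10.9, 11.2 and 10.5 FPKM (-0.12 and -0.20). Both log2 ratios of each of these 4 genes were at most 0.20 in size.

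CHD8, a gene known from autism, stood at 12.2 FPKM in the control, and at 9.87 after si4, 9.67 after si5 and 9.6 after si1 (-0.32 and -0.35). CHD7, mutated in CHARGE syndrome, stood at 5.15, 4.19, 4.2 and 3.92 FPKM in the same order (-0.30 and -0.39), and CHD6 at 6.72, 6.14, 6.09 and 5.73 FPKM (-0.14 and -0.23). In these 3 genes the control was the highest library, and si4 and si5 differed by at most 0.03 on the log2 scale. CHD9 lay on the other side, at 4.77 FPKM in the control, and at 5.58 after si4, 6.5 after si5 and 5.13 after si1 (0.34 and 0.10). The family medians were -0.12 and -0.15, and turned to 0.13 and 0.01 with the length and GC trend removed.

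Outside these families, HELLS (LSH), needed for DNA methylation at repeats, stood at 17.5 FPKM in the control, and at 18.7 after si4, 19 after si5 and 16.7 after si1 (0.11 and -0.07). SMARCAD1, which helps restore silent chromatin behind replication forks, stood at 13.3, 14.4, 15.3 and 14.7 FPKM in the same order (0.16 and 0.15). SMARCAL1, an annealing helicase at stalled forks, stood at 11, 10.1, 10.1 and 10.3 FPKM (-0.13 and -0.11). Both log2 ratios of each of the 3 were under 0.20 in size.

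The order of the control among the 4 libraries gave a count that does not depend on the 1.5-fold limit. The control was the highest library for 21 of the 44 genes, where 36.2% of 13078 genes had it highest, and the lowest for 12, where the share of all genes was 29.9%. For the remaining 11 genes the control lay between the siRNA libraries. After the trend with transcript length and GC content described next was removed, the split turned to 12 genes with the control highest and 18 with the control lowest, where 31.3% and 30.4% of 12447 annotated genes had the control highest and lowest.

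Remodelling transcripts are long, and in these libraries ratios to the control moved with transcript length and GC content over all genes. The median length was 5931 bases for the 44 genes and 3306 bases for the 12368 genes with an annotated transcript (95.2% of those compared), and the median GC content was 49% and 48%. Among all 270 genes with transcripts of at least 7500 bases and at least 50% GC, the median log2 ratio for the ZSCAN5A siRNAs was -0.36, and 21.9% were called lower. For si1 the median of this class was -0.37, and 19.7% of 269 genes were called lower. The class held 5 remodellers, EP400 (12289 bases), SRCAP (11724), ARID1B (10310), BAZ2A (8938) and ARID1A (8595), and 4 of these 5 were the ones called lower. Their median was -0.73 for the ZSCAN5A siRNAs and -0.85 for si1.

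In the class of equal length with under 50% GC, the median of all genes was -0.09 for the ZSCAN5A siRNAs and -0.10 for si1. The 12 remodellers in it had a median of -0.13 in both comparisons. Of these, 0 of 12 were called lower, where 4.32% (ZSCAN5A siRNAs) and 6.22% (si1) of all genes in the class were. At the short end, among genes under 1500 bases, the medians of all genes were 0.14 and 0.15, and the 3 remodellers there (INO80B, INO80C and INO80E) had medians of 0.27 and 0.20.

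**Figure D3:**
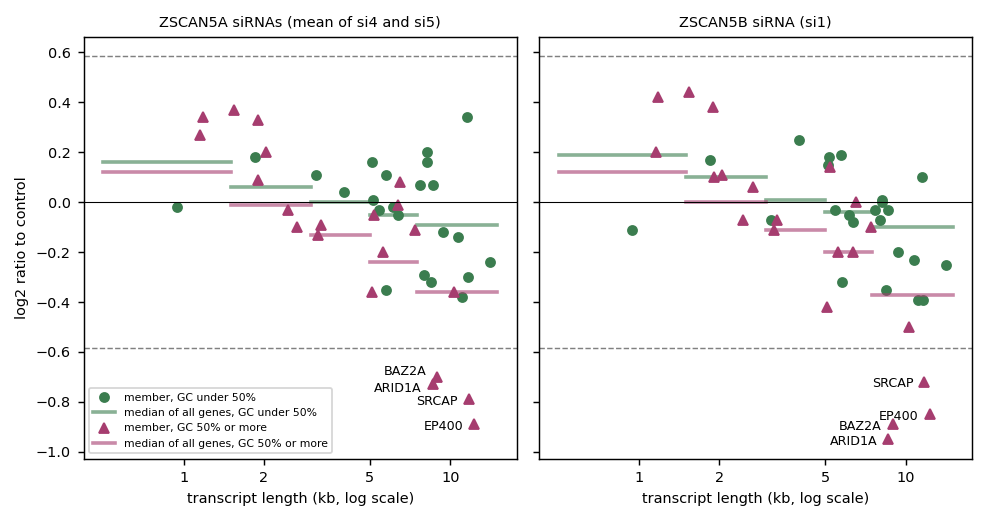
Log2 ratio to the control (vertical axis) against transcript length in kb (log scale) for the remodelling genes, with circles for transcripts under 50% GC and triangles for 50% or more, horizontal bars at the medians of all genes in each length and GC class, and dashed lines at 1.5-fold. EP400, SRCAP, BAZ2A and ARID1A sit below the median of their class, which is -0.36 for the ZSCAN5A siRNAs and -0.37 for si1.

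When the median of genes of like length and GC content was subtracted, no remodeller passed 1.5-fold in either comparison, where 1.91% and 2.18% of all genes were still called lower. EP400, SRCAP, ARID1A and BAZ2A had the lowest values of the set here too. EP400 moved from -0.89 to -0.52 for the ZSCAN5A siRNAs and from -0.85 to -0.48 for si1. SRCAP moved from -0.79 to -0.43 and from -0.72 to -0.35. ARID1A moved from -0.73 to -0.36 and from -0.95 to -0.58, the last of which is just inside the limit. BAZ2A moved from -0.70 to -0.33 and from -0.89 to -0.52. RUVBL2 kept 0.31 and 0.37, and CHD9 kept 0.32 and 0.12. ARID1B, in the same class, moved to 0.01 and -0.13. The medians of the set became 0.07 and 0.01. The part of length and GC content in the ratios as deposited was not tested beyond this subtraction.

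**Figure D4:**
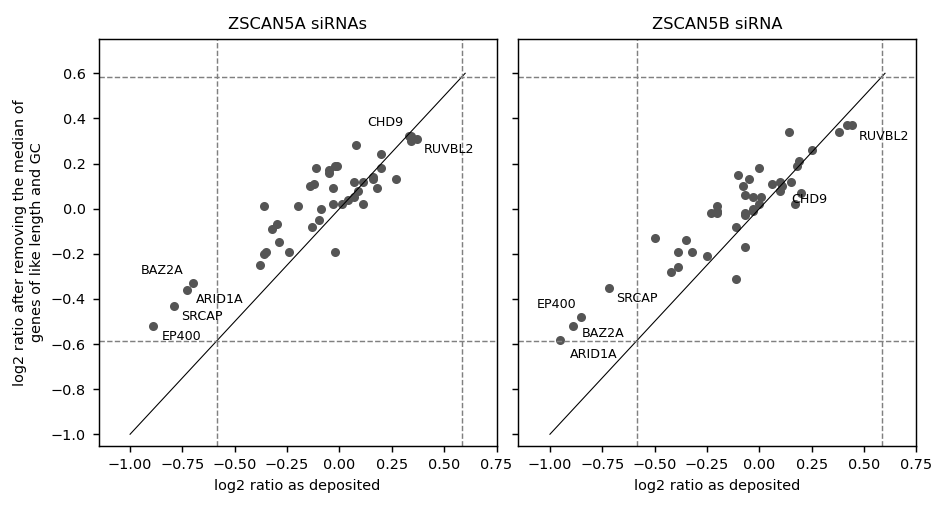
Log2 ratio as deposited (horizontal axis) against the log2 ratio after the median of genes of like length and GC content was subtracted (vertical axis), with 1 point per remodelling gene, a diagonal of equal values and dashed lines at 1.5-fold. EP400, SRCAP, ARID1A and BAZ2A lie left of the vertical dashed line and none lies below the horizontal one, with ARID1A nearest to it at -0.58 for si1.

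The siRNAs si4 and si5 target the same gene at different bases, so their gap shows how far the libraries of a single target differed. The median gap between si4 and si5 was 0.08 on the log2 scale for the 44 remodellers and 0.11 for 12995 genes. It passed 1.5-fold for 1 of 44 remodellers, INO80B-WBP1, and for 337 of the 12995 genes. The change from the control was larger than the gap in 31 of 44 remodellers, and in 7549 of all genes. For EP400, SRCAP, ARID1A and BAZ2A the gap was 0.01, 0.06, 0.13 and 0.16 in size, smaller than each gene's change. These genes were picked for a large change, and the same control enters every change, so that order carries little weight.

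Matches to the seeds marked in the siRNA targets above were counted in the 3′ UTRs of the same genes. The si4 seed match, ACGTGTA, was in 2 of 44 remodellers (BRD9 and INO80D) and in 3.39% of 11904 genes, and in none of the 4 genes called lower. The si5 seed match, ACAAGAG, was in 3 remodellers (BAZ2A, EP400 and PBRM1) and in 11.9% of 11895 genes. In the si4 library the 2 remodellers with its match had a median log2 ratio of -0.26 and the others -0.01, and the medians of all genes with and without it were -0.29 and -0.01. In the si5 library the 3 remodellers with its match had a median of -0.63 and the others -0.03, and the medians of all genes were -0.10 and -0.01. These 3 transcripts are long (EP400 12289 bases, BAZ2A 8938 and PBRM1 7991), so the si5 match was not separated from length. The si1 seed match, ATCATTT, was in 10 remodellers and in 23.5% of 11912 genes, and these 10 included EP400, SRCAP, ARID1A and BAZ2A. The 10 had a median log2 ratio of -0.44 in the si1 library, against -0.03 for the other remodellers. They also included all 5 remodellers with at least 7500 bases and at least 50% GC, so seed match was not separated from length and GC content. Over all genes the medians with and without this match were -0.06 and 0.01. The part of seed matches in the ratios was not tested.

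Subunits of the same complexes that the symbol rule did not take were given by a list of 60 genes, of which 59 reached 1 FPKM. Their median log2 ratio was -0.01 in both comparisons. By sign, 30 were lower and 29 higher with the ZSCAN5A siRNAs, and 31 were lower and 28 higher with si1. In each comparison 2 of 59 were called lower, where 3.11% (ZSCAN5A siRNAs) and 3.17% (si1) of all genes were. None was called higher, where the shares of all genes were 0.677% and 0.844%. With the length and GC trend removed, the medians of the list were 0.00 and -0.01. GLTSCR1, a subunit of the BRD9-containing BAF complex, stood at 2.76 FPKM in the control, and at 1.54 after si4, 1.51 after si5 and 1.62 after si1 (-0.86 and -0.77). GATAD2B, a subunit of NuRD, stood at 7.41, 4.35, 4.35 and 4.68 FPKM in the same order (-0.77 and -0.66). Both were lower in all siRNA libraries than in the control, as were 36.2% of all 13078 genes. The transcripts of GLTSCR1 (5687 bases) and GATAD2B (7475 bases) are long, and their ratios are as deposited, with the length and GC trend left in.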

How the data were processed

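RNA-seq covered 4 libraries of HEK-293 cells, 1 for each siRNA. The authors deposited 1 table of FPKM values. The submitters' processing notes name CASAVA 1.8.2, Trimmomatic 0.30, TopHat2 2.1.0, Cufflinks 2.2.1 and hg19. The labels name a TruSeq stranded mRNA kit and the methods a KAPA stranded mRNA kit. Values were used as deposited, without a pseudocount. No other column of per-sample values was used.

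Of the gene rows, 23642 on the main chromosomes were used. A gene was compared where a library of that comparison had 1 FPKM or more and neither side was at 0, and was called when the ratio passed 1.5-fold. The members and gene lists were chosen with earlier results of these data known. Levels in every library were given for the ATPases, genes past the limit in a comparison or in a single library, the 5 largest rises and falls in each comparison, and listed partners past the limit. Genes given outside this rule were chosen after their values were seen.

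Relative depth was taken from the commonest ratio to the control among 1745 genes under 0.1 FPKM. This ratio was shared by 215 (si4), 175 (si5) and 253 (si1) genes. With these steps, the 4 values of 1223 genes (70.1%) stood in whole-number proportions (no number above 40, tolerance 0.05%). The depth of the control was the median estimate from 739 of those genes and their annotated transcript lengths. The libraries held 1.09 (si4), 1.54 (si5) and 1.02 (si1) times the fragments of the control, and FPKM sums were 546239, 539502, 537181 and 488036 (control). Intervals cover counting error alone, and those of remodelling genes rest on fragments computed from FPKM, transcript length and the estimated depth.

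Transcript length, GC content and 3′ UTRs were taken from GENCODE v44, lifted to GRCh37 (1 transcript per gene, the tagged canonical one first), and the trend was removed as the median log2 ratio in 10 length by 5 GC bins. Promoters came from RefSeq and matched 36 genes. Analyses used Python 3.11.15, NumPy 2.4.6, pandas 2.3.3, SciPy 1.17.1, matplotlib 3.10.9, R 4.3.3 and limma 3.58.1. The fold rule, the depth steps and the limma fit were run on simulated data with known changes. Those data held no trend with length or GC content, and removal of that trend was not simulated. Alternatives covered scaling, length and GC content, pseudocount, expression and fold limits, each ZSCAN5A siRNA singly, a geometric mean and limma on log2(FPKM + 1).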

Additional observations from a re-analysis of the deposited data

How the results depend on the processing

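The 4 genes called lower were the same under median-ratio and upper-quartile scaling, both pseudocounts and with either ZSCAN5A siRNA alone. With the length and GC trend removed, 0 were called in either comparison. At a looser fold limit (a ratio beyond 5 to 4), 13 members were called for the ZSCAN5A siRNAs and 12 for si1. Of the 13, 9 were lower and 4 (CHD9, INO80B, RUVBL1 and RUVBL2) higher, where 13.4% and 5.14% of all genes were called lower and higher. Of the 12, 9 were lower and 3 (INO80B, RUVBL1 and RUVBL2) higher, where the shares were 12.8% and 6.7%. At a limit of 2, 0 members were called in either comparison, where 0.385% and 0.325% of all genes were called lower. limma on log2(FPKM + 1), whose spread rests on si4 and si5 with 1 residual degree of freedom, called 0 of 44 members and 10 of 13044 genes. It gave 9 members and 1618 genes an unadjusted p under 0.05, and the smallest adjusted p of a member was 0.393. With 1 ZSCAN5A siRNA left out the count was 5, the addition being INO80B-WBP1, whose log2 ratio was 0.82 with si4 alone and turned to -0.91 with si5 alone. Without that row, a choice made after seeing the data, the count stayed at 4 in both comparisons.

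The median log2 ratio of members for the ZSCAN5A siRNAs was -0.02 under median-ratio scaling, 0.00 under upper-quartile scaling, -0.04 with a geometric mean, 0.07 with length and GC removed, and -0.04 to -0.02 with either siRNA left out. For si1 it was -0.06 under upper-quartile scaling and 0.01 with length and GC removed. With length and GC removed, all 8 ratios that had been called (4 genes in 2 comparisons) fell inside the limit, and the other 80 of 88 had not been past it before. No paired analysis was possible because each treatment was sequenced once and the labels pair no libraries. With 1 control library, any difference particular to that library enters every ratio.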
